A study of Homo sapiens with 60 samples.

Results

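The transcripts of 44 genes of the response to low oxygen and of glycolysis were followed in SW1783 cells, an established human astrocytoma line, after exposure to 8 herbal preparations. The genes were chosen by symbol from what is known of the pathway, at a time when earlier results of these data were known. All 44 were found among the 60675 genes of the count table and were abundant enough to be tested. They comprised 2 alpha subunits of the hypoxia-inducible factors (HIF1A and EPAS1), 26 genes known to be driven by these factors, and 16 core enzymes of glycolysis. The cells were kept in Leibovitz's L-15 medium with serum and no added CO2, and were treated for 24 h with 0.1% DMSO (the vehicle, 3 libraries) or with a water extract. Cinnamomi Cortex (Cinnamon), Astragali Radix (Astragalus), Cnidii Rhizoma (Cnidium), Rehmanniae Radix Preparata (Rehmannia) and the formula Sagunja-tang had 3 libraries at each of 500, 100 and 20 µg/mL (high, medium and low dose below). The formula Samul-tang had 2 libraries at each dose, and Angelicae Gigantis Radix (Angelica) and Paeoniae Radix (Paeonia) had 1. No label names an oxygen level, so every group shares the same stated culture conditions.

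The alpha subunits are made continuously, and in the presence of oxygen prolyl hydroxylases such as EGLN1 and EGLN3 mark them for destruction. When they persist, they pair with ARNT, bind the short hypoxia response element (core ACGTG or GCGTG) and raise genes for glucose uptake, glycolysis, lactate export, angiogenesis, mitophagy and collagen modification. Control of the factors is therefore largely at the level of protein, which these data do not measure. Several enzymes placed in the core group (HK2, ALDOC, PGK1, ENO1, LDHA) are also known targets of HIF, so the division follows function and not exclusive control. L-15 holds galactose in place of glucose.

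RefSeq promoter windows of 300 bases (250 before the start of transcription and 50 from it) on GRCh38.p14 were at hand for 39 of the 44 genes, several with more than 1 start. Either core motif, ACGTG or GCGTG on either strand, was present in 29 of 35 windows of the HIF-driven genes (82.9%), in 22 of 36 windows of the core enzymes (61.1%) and in 48.4% of all 35116 windows. For ACGTG alone the shares were 51.4%, 41.7% and 21.4%. A palindromic CACGTG is matched on both strands, and its matches overlap. The windows printed are those of 3 HIF-driven genes and 2 isozymes that moved with an extract, and of 2 abundant enzymes that were not called against vehicle with Cinnamon, with the motif in capitals and the sequence running 5′ to 3′ on the strand of the gene.
ANGPTL4 (chr19:8363905-8364204, plus strand): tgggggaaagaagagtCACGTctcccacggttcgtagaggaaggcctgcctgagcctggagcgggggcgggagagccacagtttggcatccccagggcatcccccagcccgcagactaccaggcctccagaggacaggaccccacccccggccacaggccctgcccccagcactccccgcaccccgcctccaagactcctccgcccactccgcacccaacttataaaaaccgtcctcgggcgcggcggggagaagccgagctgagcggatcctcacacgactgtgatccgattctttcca
ADM (chr11:10304823-10305122, plus strand): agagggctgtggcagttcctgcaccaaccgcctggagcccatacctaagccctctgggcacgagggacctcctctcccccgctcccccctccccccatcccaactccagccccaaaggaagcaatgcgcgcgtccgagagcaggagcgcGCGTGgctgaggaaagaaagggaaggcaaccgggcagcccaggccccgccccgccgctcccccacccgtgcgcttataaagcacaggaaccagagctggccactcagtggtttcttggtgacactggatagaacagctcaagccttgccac
BNIP3 (chr10:131981874-131982173, minus strand): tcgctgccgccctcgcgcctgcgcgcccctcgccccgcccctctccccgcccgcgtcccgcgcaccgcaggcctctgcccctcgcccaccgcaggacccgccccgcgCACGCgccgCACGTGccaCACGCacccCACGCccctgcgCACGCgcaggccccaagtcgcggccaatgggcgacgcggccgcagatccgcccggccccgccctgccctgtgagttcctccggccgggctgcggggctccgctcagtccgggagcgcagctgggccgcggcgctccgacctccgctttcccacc
ALDOC (chr17:28576846-28577145, minus strand): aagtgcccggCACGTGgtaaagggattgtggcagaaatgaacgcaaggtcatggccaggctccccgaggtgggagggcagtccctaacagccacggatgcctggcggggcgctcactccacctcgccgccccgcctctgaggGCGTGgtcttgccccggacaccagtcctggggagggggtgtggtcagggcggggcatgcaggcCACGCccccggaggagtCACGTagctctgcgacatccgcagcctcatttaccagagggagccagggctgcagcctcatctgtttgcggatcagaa
ENO2 (chr12:6914330-6914629, plus strand): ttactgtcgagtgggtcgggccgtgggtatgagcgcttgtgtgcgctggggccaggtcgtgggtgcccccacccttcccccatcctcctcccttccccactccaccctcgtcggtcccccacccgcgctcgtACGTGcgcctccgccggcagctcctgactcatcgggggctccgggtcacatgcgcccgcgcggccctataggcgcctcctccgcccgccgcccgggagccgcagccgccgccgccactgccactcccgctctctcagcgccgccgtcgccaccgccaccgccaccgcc
GAPDH (chr12:6535014-6535313, plus strand): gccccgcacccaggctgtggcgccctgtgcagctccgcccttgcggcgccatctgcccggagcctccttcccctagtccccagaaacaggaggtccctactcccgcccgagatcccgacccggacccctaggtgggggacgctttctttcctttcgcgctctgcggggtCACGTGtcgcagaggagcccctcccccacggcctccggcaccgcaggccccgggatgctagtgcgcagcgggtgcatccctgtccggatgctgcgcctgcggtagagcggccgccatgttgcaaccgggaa
PKM (chr15:72231141-72231440, minus strand): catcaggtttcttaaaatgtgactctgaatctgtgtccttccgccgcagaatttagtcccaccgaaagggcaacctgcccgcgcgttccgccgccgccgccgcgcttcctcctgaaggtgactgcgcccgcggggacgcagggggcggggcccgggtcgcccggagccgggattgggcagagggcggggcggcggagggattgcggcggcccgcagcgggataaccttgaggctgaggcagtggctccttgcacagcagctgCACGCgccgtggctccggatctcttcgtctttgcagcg
BNIP3 held 6 matches, the first at -143 relative to the start of transcription, and ALDOC held 5, among them an overlapping pair at -240 and -239 and another at -108. GAPDH held an overlapping pair at -81 and -80. Its whole window lies downstream of the start of the gene in the GENCODE annotation (6533927). The windows of ANGPTL4, ADM, ALDOC, ENO2 and PKM likewise lie downstream of the outermost annotated start of their genes. Which start these cells used was not tested. ANGPTL4, ADM, ENO2 and PKM had 1 match each, at -234, -101, -118 and 12. Presence of the letters is a description of the window and shows no binding.

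Library totals ran from 20604792 to 29609799 expected counts with a median of 24996213. The first part of each sample code divides the libraries into sets: the vehicle forms a set of its own, and Cinnamon with Astragalus, Cnidium with Rehmannia, Sagunja with Samul, and Angelica with Paeonia form the others. In a comparison with the vehicle the set cannot be told apart from the treatment. Contrasts of the high and low doses inside a set are therefore given for each replicated preparation, though not for every gene. The first library of Sagunja low stood apart. Its value was the highest of the 60 libraries for 11 of the 44 genes and the lowest for 10, and results are given with and without it because all groups with at least 2 libraries share an estimate of the spread. Of the markers of the cell of origin, VIM (4656 to 5990 CPM, counts scaled by the size of the library), CD44 (1994 to 2994), SOX9 and SLC1A3 were expressed, while GFAP, S100B, AQP4 and ALDH1L1 did not exceed 0.32 CPM. Nothing in the labels ties the replicates to separate cultures, so p-values describe the spread among these libraries alone, which may be technical. In such bulk RNA, fewer cells with a transcript and less transcript in each cell cannot be told apart.

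In vehicle cells the core enzymes were together far more abundant than the HIF-driven genes, although their minor isozymes lay within the range of the HIF-driven genes. Per kilobase of exon, GAPDH stood highest at 1564 ± 48.5 CPM per kb (mean ± SD, n = 3), followed by ENO1 (534 ± 6.60), ALDOA (434 ± 3.04), PKM (372 ± 2.39) and LDHA (289 ± 7.17). The neighbours in this order differed by more than their SDs. The brain-type isozymes were minor: ENO2 reached 12.5 ± 0.300 CPM per kb and ALDOC 1.97 ± 0.0436. HIF1A was abundant at 201 ± 2.38 CPM per kb, against 27.3 ± 0.796 for EPAS1. Among the HIF-driven genes the levels ran from 0.546 ± 0.0819 CPM per kb for EGLN3 to 75.0 ± 2.08 for P4HA1, a subunit of the collagen prolyl hydroxylase. Summed over the lists, the core enzymes took 17690 ± 155 CPM and the HIF-driven genes 2294 ± 25.1 CPM.

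**Figure D1:**
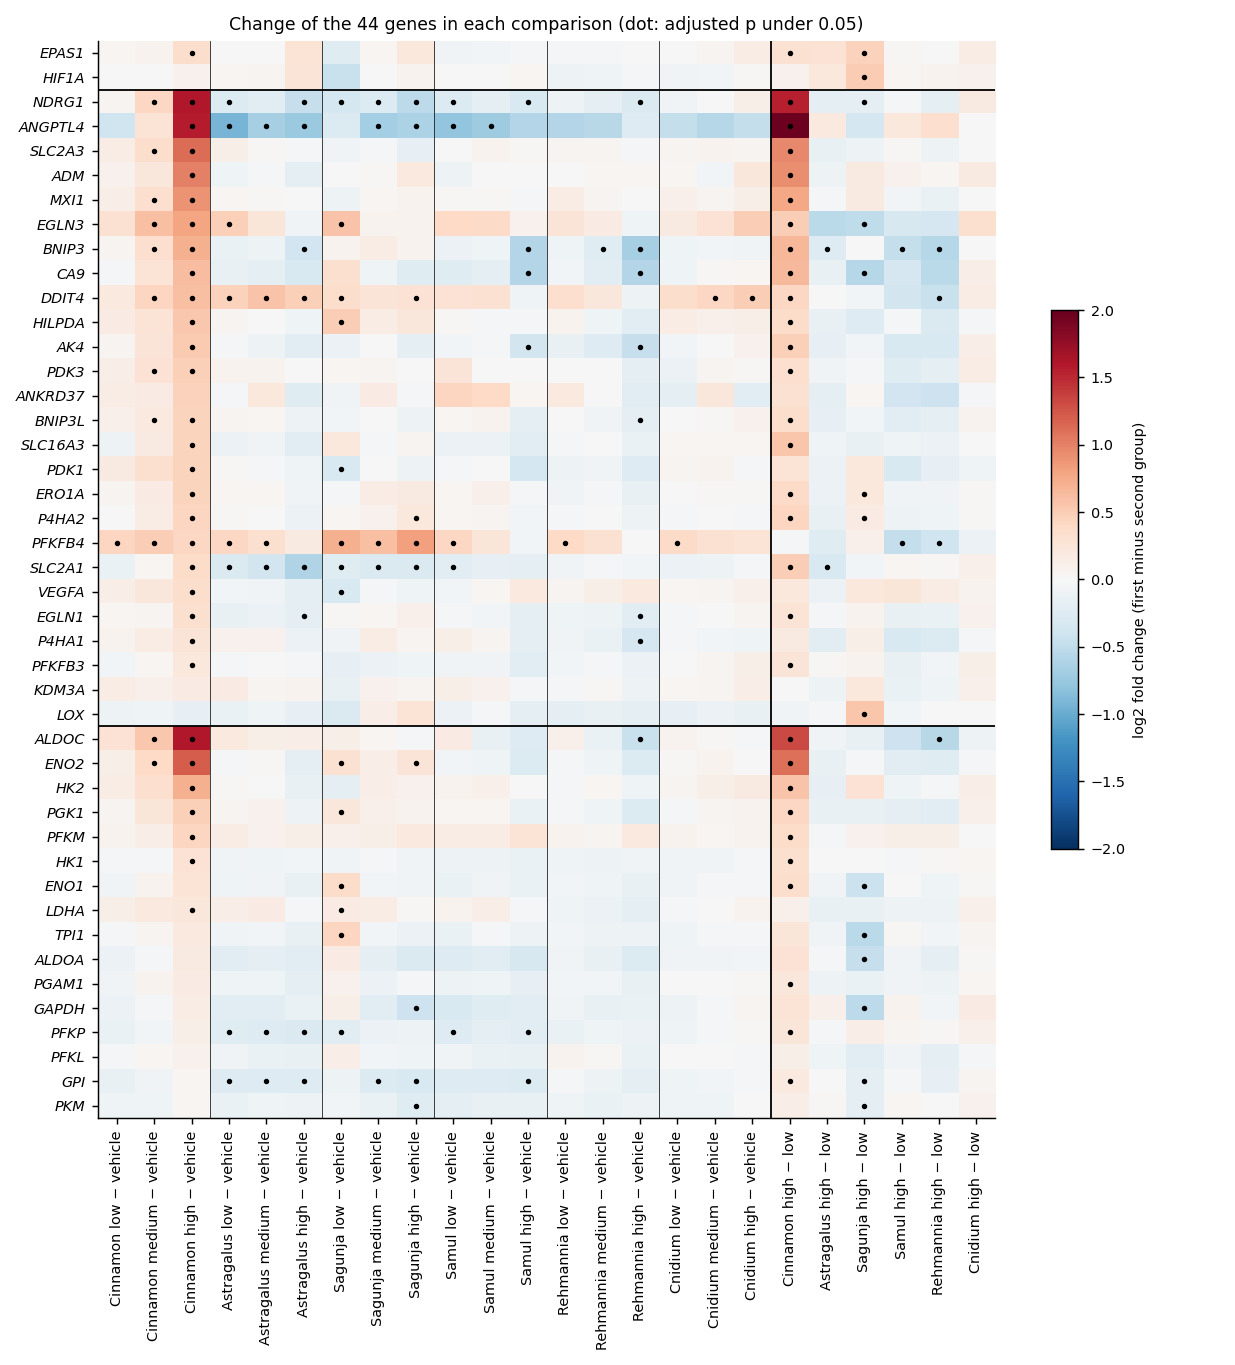
Log2 fold changes (color) of the 44 genes (rows) in the 18 comparisons of an extract dose with the vehicle and the 6 of high with low dose (columns), with a dot where the adjusted p was under 0.05. The Cinnamon high columns carry 31 and 30 genes called higher and none called lower, and no other column carries more than 14 calls.

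Most of the HIF-driven genes and some of the glycolytic enzymes rose at the high dose of Cinnamon, while the abundant enzymes GAPDH, PKM and GPI did not pass the test against vehicle. Of the 44 genes, 31 were called higher and 0 lower against the vehicle (edgeR's quasi-likelihood test, Benjamini-Hochberg adjusted p under 0.05), where 22.8% of all 17516 tested genes were called in either direction. By list, 23 of 26 HIF-driven genes and 7 of 16 core enzymes were called higher. The median log2 fold change was 0.45 for the HIF-driven genes, 0.21 for the core enzymes and 0.005 for all tested genes. Against the low dose of the same extract 30 genes were called higher and 0 lower (21.6% of all genes), made up of 19 HIF-driven genes, 10 core enzymes and EPAS1, with medians of 0.39 and 0.28. Without the first Sagunja low library the counts were 35 higher and 1 lower against the vehicle (35.9% of all genes) and 37 higher and 0 lower against the low dose (35.9%), and every gene called before was called again.

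Largest among the HIF-driven genes were changes in NDRG1, a stress-induced differentiation gene, and ANGPTL4, a secreted inhibitor of lipoprotein lipase. NDRG1 measured 52.6, 49.4 and 51.9 CPM in the vehicle libraries, 52.6, 52.4 and 54.9 at the low dose, 71.4, 66.0 and 68.7 at the medium dose and 150.2, 168.8 and 150.4 at the high dose. The low dose overlapped the vehicle, and every library of the medium and high doses lay above both. The log2 fold change of high against vehicle was 1.61 ± 0.065 (SE, 3.05-fold, adjusted p = 1.73e-22). ANGPTL4 measured 21.2, 21.6 and 22.4 CPM in vehicle, 18.5, 15.8 and 15.0 at the low dose, 28.9, 26.1 and 23.4 at the medium dose and 65.4, 63.7 and 64.1 at the high dose. Here the low-dose libraries lay below the vehicle, so its change against the low dose (1.97 ± 0.17, adjusted p = 3.15e-12) was larger than that against vehicle (1.57 ± 0.17, adjusted p = 7.93e-10).

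SLC2A3 encodes the high-affinity glucose transporter GLUT3. Its level was 31.7, 31.3 and 31.0 CPM in vehicle, 34.1, 35.6 and 35.04 at the low dose, 38.3, 42.3 and 39.5 at the medium dose and 68.2, 69.5 and 65.8 at the high dose. None of these 4 groups overlapped, and the high dose exceeded vehicle by 1.11 ± 0.061 (log2, adjusted p = 3.55e-18). ADM, the gene of the vasodilator peptide adrenomedullin, measured 12.2, 11.4 and 10.4 CPM in vehicle, 12.5, 11.6 and 12.01 at the low dose, 13.4, 12.6 and 13.7 at the medium dose and 23.3, 23.3 and 21.9 at the high dose. Vehicle and low dose overlapped for ADM, and its change at the high dose was 1.01 ± 0.077 (adjusted p = 1.12e-13).

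**Figure D2:**
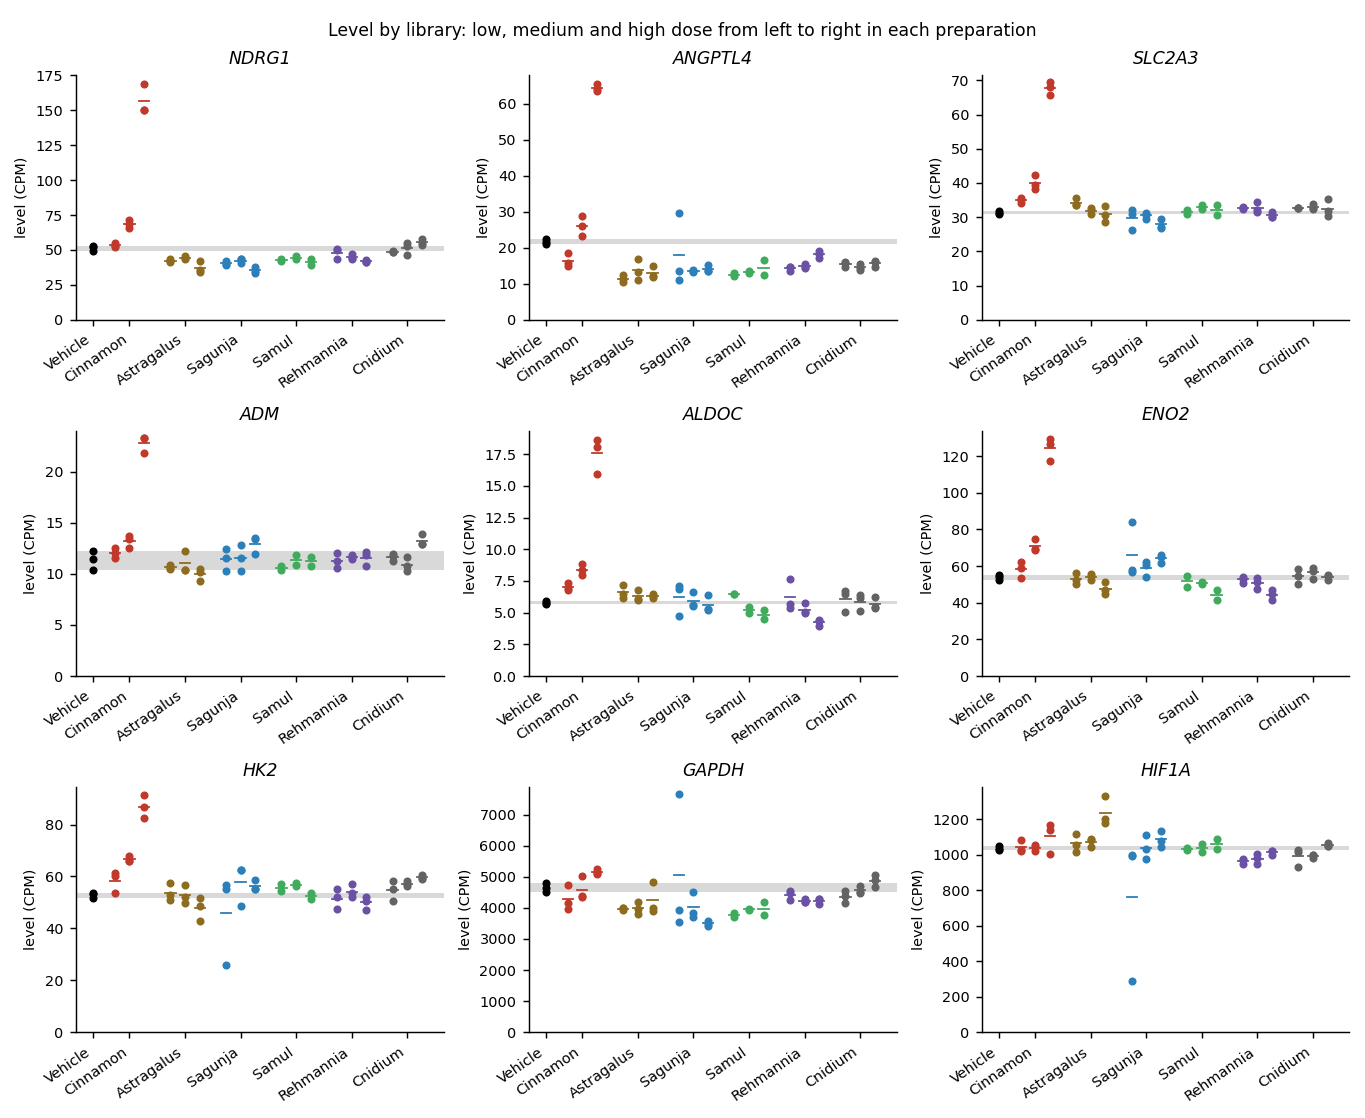
Level (CPM, vertical axis) of 9 genes in every library of the vehicle and of the 6 replicated preparations at the low, medium and high dose, with points for libraries, a short line for the mean and gray for the vehicle range. At Cinnamon high NDRG1 reached 150.2 to 168.8 CPM against 49.4 to 52.6 in vehicle, while HIF1A overlapped the vehicle.

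The other HIF-driven genes called higher at Cinnamon high spanned each branch of the response, with changes given against vehicle unless stated. Of the 23 HIF-driven genes called against vehicle, 19 were also called higher than at the low dose. Between high and low dose BNIP3 changed by 0.66, CA9 by 0.64, VEGFA by 0.215 and P4HA1 by 0.19. For mitophagy, BNIP3 went from 117.4, 120.1 and 119.3 CPM in vehicle to 200.2, 184.8 and 198.5 (0.71 ± 0.054, adjusted p = 1.12e-13), with no overlap. Its relative BNIP3L rose by 0.45. The MYC antagonist MXI1 rose by 0.91, the mTORC1 inhibitor DDIT4 by 0.60, the lipid droplet protein gene HILPDA by 0.55 and the mitochondrial adenylate kinase AK4 by 0.53. For pH and fuel handling, CA9 (carbonic anhydrase IX) rose by 0.62 ± 0.15 (adjusted p = 0.0015), the lactate exporter SLC16A3 by 0.45 and the glucose transporter SLC2A1 by 0.36. The pyruvate dehydrogenase kinases PDK1 and PDK3 rose by 0.45 and 0.48, and the phosphofructokinase regulator PFKFB3 by 0.21. Its relative PFKFB4 was higher than vehicle by 0.41, but differed by only -0.02 from the low dose, where it was already called. VEGFA, the angiogenic growth factor, rose by 0.35, the collagen hydroxylase subunits P4HA1 and P4HA2 by 0.26 and 0.43, and the oxidoreductase ERO1A by 0.44. The hydroxylases that restrain HIF, EGLN1 and EGLN3, rose by 0.33 and 0.79. ANKRD37 (0.45, adjusted p = 0.0771), the histone demethylase KDM3A (0.16, adjusted p = 0.365) and the collagen crosslinker LOX (-0.17, adjusted p = 0.285) did not pass.

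Of the factors themselves, EPAS1 rose with Cinnamon high and HIF1A was not called. HIF1A measured 1051, 1029 and 1031 CPM in vehicle and 1002, 1137 and 1170 at Cinnamon high, with 1081, 1024 and 1020 at the low dose. These libraries overlapped, the difference from vehicle was 0.09 ± 0.18 (adjusted p = 0.778), and its 95% interval ran from -0.28 to 0.45. EPAS1, which encodes HIF-2 alpha, measured 198.7, 194.4 and 205.9 CPM in vehicle, 221.0, 198.1 and 197.7 at the low dose and 249.3, 262.1 and 251.8 at the high dose. All high-dose libraries lay above the others, with a difference of 0.35 ± 0.095 from vehicle (adjusted p = 0.00558) and of 0.31 from the low dose (adjusted p = 0.016). The call against the low dose was lost without the second library of the high dose (adjusted p = 0.0581) or without the second (0.0658) or the third (0.0668) library of the low dose.

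Among the core enzymes the largest changes were in the minor isozymes ALDOC, ENO2 and HK2. ALDOC, the brain-type aldolase, measured 5.65, 5.77 and 5.90 CPM in vehicle, 6.97, 7.31 and 6.80 at the low dose, 7.99, 8.36 and 8.82 at the medium dose and 15.95, 18.1 and 18.6 at the high dose. None of these groups overlapped, and the change at the high dose was 1.60 ± 0.12 (3.04-fold, adjusted p = 2.65e-14). ENO2, the neuron-type enolase, measured 53.9, 54.9 and 52.3 CPM in vehicle, 53.4, 59.1 and 62.3 at the low dose, 69.1, 74.7 and 68.8 at the medium dose and 126.5, 129.4 and 117.4 at the high dose. The low dose overlapped the vehicle and the higher doses did not (1.21 ± 0.089, 2.32-fold, adjusted p = 3.3e-14).

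HK2, the inducible hexokinase, measured 53.5, 53.3 and 51.7 CPM in vehicle, 53.6, 61.4 and 60.3 at the low dose, 65.9, 66.1 and 67.8 at the medium dose and 91.2, 86.8 and 82.6 at the high dose (0.72 ± 0.13, adjusted p = 4.3e-05). PGK1, which makes the first ATP of the pathway, went from 904.5, 943.5 and 922.4 CPM to 1317, 1265 and 1256 (0.47 ± 0.078, adjusted p = 1.13e-05). Both genes had every high-dose library above every vehicle library. Lactate dehydrogenase A, LDHA, measured 1839, 1795 and 1750 CPM in vehicle, 1779, 2032 and 2014 at the low dose and 1912, 2196 and 2174 at the high dose. It was called against the vehicle (0.22 ± 0.059, adjusted p = 0.00441) and overlapped the low dose (0.11, adjusted p = 0.193). HK1 rose by 0.29 and the muscle-type phosphofructokinase PFKM by 0.43.

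GAPDH, the most abundant enzyme of the list, was called against neither vehicle nor low dose with all libraries in the fit, and against the low dose once the first Sagunja low library was left out. It measured 4814, 4526 and 4651 CPM in vehicle, 4722, 3978 and 4155 at the low dose and 5089, 5109 and 5261 at the high dose. The high-dose libraries lay above the rest, but the difference of 0.14 ± 0.13 from vehicle had an adjusted p of 0.48 and that of 0.27 from the low dose one of 0.152. Without that Sagunja library GAPDH (adjusted p = 0.000968), PKM (adjusted p = 0.0405), ALDOA and TPI1 were called against the low dose, and GAPDH was still not called against vehicle (adjusted p = 0.107). Of the other 8 uncalled enzymes, ENO1 (0.27), TPI1 (0.19), ALDOA (0.16) and PGAM1 (0.15) were then called higher than vehicle. With all libraries in the fit these 8 had differences from vehicle between 0.04 (PKM, GPI) and 0.28 (ENO1, adjusted p = 0.106). Against the low dose ENO1, PGAM1, PFKP and GPI were called, by 0.35, 0.23, 0.25 and 0.19. The call of GPI was lost without the first (adjusted p = 0.148) or second (0.0865) high-dose library and without the second (0.201) or the third (0.11) low-dose library.

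The shift between isozymes was visible as a share of each step's transcripts, on the scale of CPM per kb. ALDOC made up 0.453% ± 0.00882 (SD, n = 3) of the ALDOA and ALDOC total in vehicle and 1.21% ± 0.132 at Cinnamon high. ENO2 went from 2.30% ± 0.0262 to 4.31% ± 0.317 of the 2 enolases, and HK2 from 13.1% ± 0.192 to 16.9% ± 0.733 of the 2 hexokinases. For glucose uptake, SLC2A3 went from 10.6% ± 0.182 to 16.7% ± 0.477 of SLC2A1 plus SLC2A3. In each case the libraries of the 2 groups did not overlap, yet the common isozyme (ALDOA, ENO1, HK1, SLC2A1) kept the larger share. Raised shares of HK2 and SLC2A3 were not particular to Cinnamon high. The HK2 share was 16.2% ± 0.338 at Cinnamon medium, 14.8% ± 0.0737 at Cnidium high and 16.1% in the Angelica high library. It lay below the vehicle mean only at Rehmannia high, Astragalus high, Sagunja low and Paeonia high. The SLC2A3 share was 15.1% ± 1.51 at Astragalus high, where SLC2A1 was lower, and lay below the vehicle mean only at Paeonia medium. For ALDOC and ENO2 every Cinnamon high library lay above all other libraries.

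**Figure D3:**
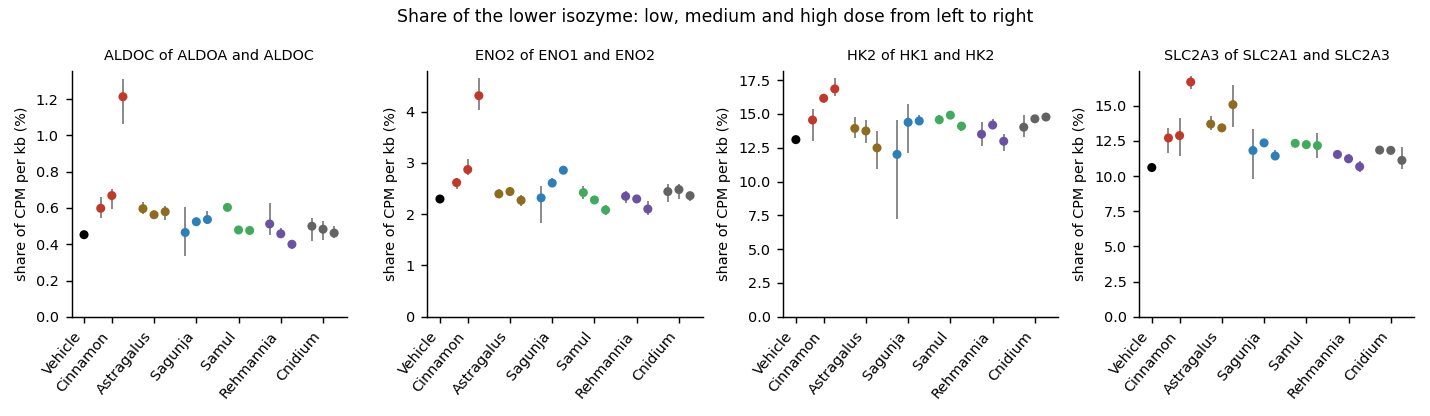
Share taken by the minor isozyme (percent of CPM per kb, vertical axis) at the low, medium and high dose of each replicated preparation, for ALDOC, ENO2, HK2 and SLC2A3, with points for means and lines from the lowest to the highest library. Cinnamon high lies at 1.06% to 1.31% for ALDOC against 0.443% to 0.459% in vehicle.

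The Cinnamon response was graded with dose. Group means rose from low through medium to high for 23 of 26 HIF-driven genes and for 16 of 16 core enzymes. The share of all genes with means in this order was not computed. With Cnidium, where no member was called between high and low dose, 13 of 26 and 11 of 16 rose in this order. At the medium dose 11 genes were called higher and 0 lower against vehicle (2.29% of all genes), 9 of them HIF-driven and 2 of them core enzymes (ALDOC and ENO2). The medians at this dose were 0.24 for the HIF-driven genes and 0.06 for the core enzymes. Leaving out the second or the third medium-dose library reduced the count to 7. At the low dose only PFKFB4 was called (1 higher, 0 lower, 1.06% of all genes), and without the first low-dose library the count was 0. Summed CPM of the HIF-driven genes was 2339 at the low dose, 2586 at the medium dose and 3118 at the high dose, and the core enzymes reached 20170 ± 281 CPM at the high dose.

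Astragalus, in the same set as Cinnamon, did not share this rise. The test of the difference between their dose effects (high minus low of Cinnamon less high minus low of Astragalus) called 28 of the 44 genes higher for Cinnamon and 0 lower, with 14.4% of all genes called. These were 19 HIF-driven genes and 9 core enzymes, with median differences of 0.52 and 0.31. Without the first Sagunja low library the counts were 35 and 0 (27.8%). ANGPTL4 differed by 1.78, NDRG1 by 1.73, ALDOC by 1.39, ENO2 by 1.25 and SLC2A3 by 1.10 on the log2 scale. LDHA, with a difference of 0.26, lost its call when any of 5 libraries was left out, the first Cinnamon low (adjusted p = 0.131), the first Astragalus high (0.118), the second (0.0896) or the third (0.0811) Cinnamon high, or the third Astragalus low (0.0942).

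Other genes of the pathway moved in part with Cinnamon high. Of 18 further HIF targets, 8 were higher than vehicle, with INSIG2 (a sterol sensor) at 0.65 and CA12 (carbonic anhydrase XII) at 0.64. Of 9 tested genes of the HIF system other than the members, CREBBP, a coactivator, was lower at -0.35 (adjusted p = 0.0473) and none was higher. Of 17 further genes of glucose and pyruvate use, 6 were higher and 0 lower, led by PDK4 (1.67 ± 0.40), which restrains pyruvate dehydrogenase, and HKDC1 (1.19), a hexokinase-like gene. Between the high and low dose of Cinnamon, INSIG2 (0.49), CA12 (0.51) and HKDC1 (0.82) were called higher, while PDK4 and CREBBP were not called. Several of these were not particular to Cinnamon. Against vehicle PDK4 was also higher at Astragalus high (1.46), and at Sagunja high INSIG2 (0.67) and HKDC1 (0.65) were higher and CREBBP (-0.36) lower. Median log2 changes of these lists at Cinnamon high against vehicle were 0.26, 0.10 and 0.17, and 22.8% of all genes were called in that comparison.

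Beside these, 7 of 10 targets of ATF4, the factor of the amino acid and stress response, were higher and 0 lower (median 0.54), with TRIB3 at 0.96 and DDIT3 at 0.93. Among the cell type markers tested, beside the same 22.8% over all genes, 3 of 7 of astrocytes and glioma were lower (SLC1A3 by -0.42 and SOX9 by -0.34 among those above 1 CPM), 1 of 3 of microglia was higher (CD68, 0.39) and 1 lower (PTPRC, -1.04), 0 of 2 endothelial markers were called, and 2 of 3 of neurons were lower (SYT1 by -0.40, SNAP25 by -0.25). Over all 60 libraries the summed marker levels ran from 7245 to 9241 CPM for astrocytes and glioma, 97.1 to 236.6 for microglia, 14.9 to 37.9 for endothelium and 45.4 to 72.2 for neurons. The microglial marker AIF1 was at 0 in 56 libraries and the endothelial marker CDH5 in 40. The part of the ATF4 targets and of the markers in the Cinnamon result was not tested.

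Some of the genes overlap others in the genome. ALDOC and ENO2 overlap ENSG00000258472 and LRRC23 on the same strand, and EGLN3, PGK1 and PFKFB4 overlap SPTSSA, ATP7A and UCN2. LRRC23 had 5.10 CPM in vehicle and 7.58 at Cinnamon high, and ENSG00000258472 2.75 and 2.67, against levels of ENO2 and ALDOC that changed by far more. ATP7A had 53.3 and 57.2 CPM. SPTSSA had 67.4 CPM in vehicle and 73.4 at Cinnamon high, a difference larger than that of EGLN3 itself (4.01 and 6.96 CPM), so the values of EGLN3 are uncertain. UCN2 had 7.85 CPM in vehicle, 10.2 at Cinnamon low, 5.21 at Cinnamon high, 10.7 at Rehmannia low and 8.48 at Rehmannia high, so it moved with PFKFB4 in Rehmannia, and its part in the PFKFB4 values was not tested. P4HA2, ANKRD37, SLC16A3, PFKM and CA9 have expressed partners on the opposite strand, and although the libraries were directional, use of the strand in counting is not stated in the sources at hand. Near-identical copies of SLC2A3 and PGAM1 were hardly detected (SLC2A14 up to 0.0866 CPM, PGAM4 up to 0.112 CPM).

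Rehmannia and Samul-tang at the high dose had lower levels of several of these genes, most clearly of BNIP3. Samul-tang is a traditional formula of Rehmannia, Angelica, Cnidium and Paeonia. For Rehmannia high 0 genes were called higher and 8 lower than vehicle (2.37% of all genes), 7 of them HIF-driven and 1 a core enzyme. For Samul high 0 were higher and 6 lower (4.13%), 4 HIF-driven and 2 core. The list medians were -0.16 and -0.14 for Rehmannia and -0.13 and -0.14 for Samul, against medians of all genes of 0.003 and 0.013. With the first Sagunja low library left out, these became 1 higher and 17 lower for Rehmannia (7.65%) and 2 higher and 19 lower for Samul (13.4%).

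BNIP3 measured 112.9, 113.2 and 108.8 CPM at Rehmannia low, 99.6, 103.2 and 99.1 at medium and 74.7, 78.5 and 73.1 at high, against 117.4 to 120.1 in vehicle. No group overlapped another in this series of doses. The high dose was lower than vehicle by -0.66 ± 0.055 (1.58-fold, adjusted p = 5.89e-11) and lower than the low dose by -0.56 (adjusted p = 2.96e-09). With Samul BNIP3 measured 109.4 and 110.8 CPM at low, 109.5 and 114.2 at medium and 81.5 and 76.2 at high (n = 2). Low and medium doses overlapped, and the high dose lay below both, by -0.48 ± 0.067 against the low dose (adjusted p = 1.05e-05) and by -0.59 against vehicle (adjusted p = 1.87e-08). BNIP3 kept its call for both preparations under every alternative computed.

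CA9 and AK4 were lower than vehicle in the same groups, but these calls depended on single libraries, as given below. With all libraries in the fit neither gene was called against the low dose. Both were called against it, in both preparations, once the first Sagunja low library was left out. CA9 measured 36.8, 32.9 and 34.9 CPM in vehicle, 23.1, 22.2 and 24.1 at Rehmannia high (-0.59, adjusted p = 0.0213) and 22.6 and 23.8 at Samul high (-0.59, adjusted p = 0.0371). AK4 measured 25.7, 24.4 and 23.4 CPM in vehicle, 16.8, 18.8 and 17.9 at Rehmannia high (-0.46, adjusted p = 0.000677) and 18.6 and 19.4 at Samul high (-0.36, adjusted p = 0.0161). All libraries of the high doses lay below all vehicle libraries for both genes. NDRG1 was called lower in both, at -0.30 each, but the call was lost without the first vehicle library for Rehmannia (adjusted p = 0.0526) and without the first Samul high library for Samul (adjusted p = 0.273). The remaining calls were P4HA1 (-0.34), EGLN1 (-0.22), BNIP3L (-0.20) and ALDOC for Rehmannia, and the enzymes GPI (-0.28) and PFKP (-0.21) for Samul. GPI lost its call without the first (adjusted p = 0.0761) or the third (0.103) vehicle library or the first Samul high library (0.372).

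The counts against vehicle were sensitive to single libraries. Leaving out any of the 6 libraries of the Rehmannia comparison left 2 to 4 calls, with 2 without the first vehicle library, 4 without the second and 3 without any of the others. BNIP3 and NDRG1 were among the 3 left without any 1 Rehmannia high library, so CA9 and AK4 were not both called there. For Samul high 2 calls were left without the first vehicle library or the first Samul high library and 3 without the third vehicle library. Without the first vehicle library the 2 left for Samul high were BNIP3 and NDRG1, so CA9 and AK4 were not called. ALDOC measured 7.63, 5.69 and 5.34 CPM at Rehmannia low and 4.31, 3.98 and 4.40 at high, below all vehicle libraries (-0.45, adjusted p = 0.0485). Its call against vehicle was lost without any 1 of the 6 libraries (adjusted p 0.0973 to 0.214). Against the low dose ALDOC differed by -0.56 ± 0.13 (adjusted p = 0.0165), and this call was lost without the first (0.0579) or second (0.143) high-dose library or the first low-dose library (0.302).

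**Figure D4:**
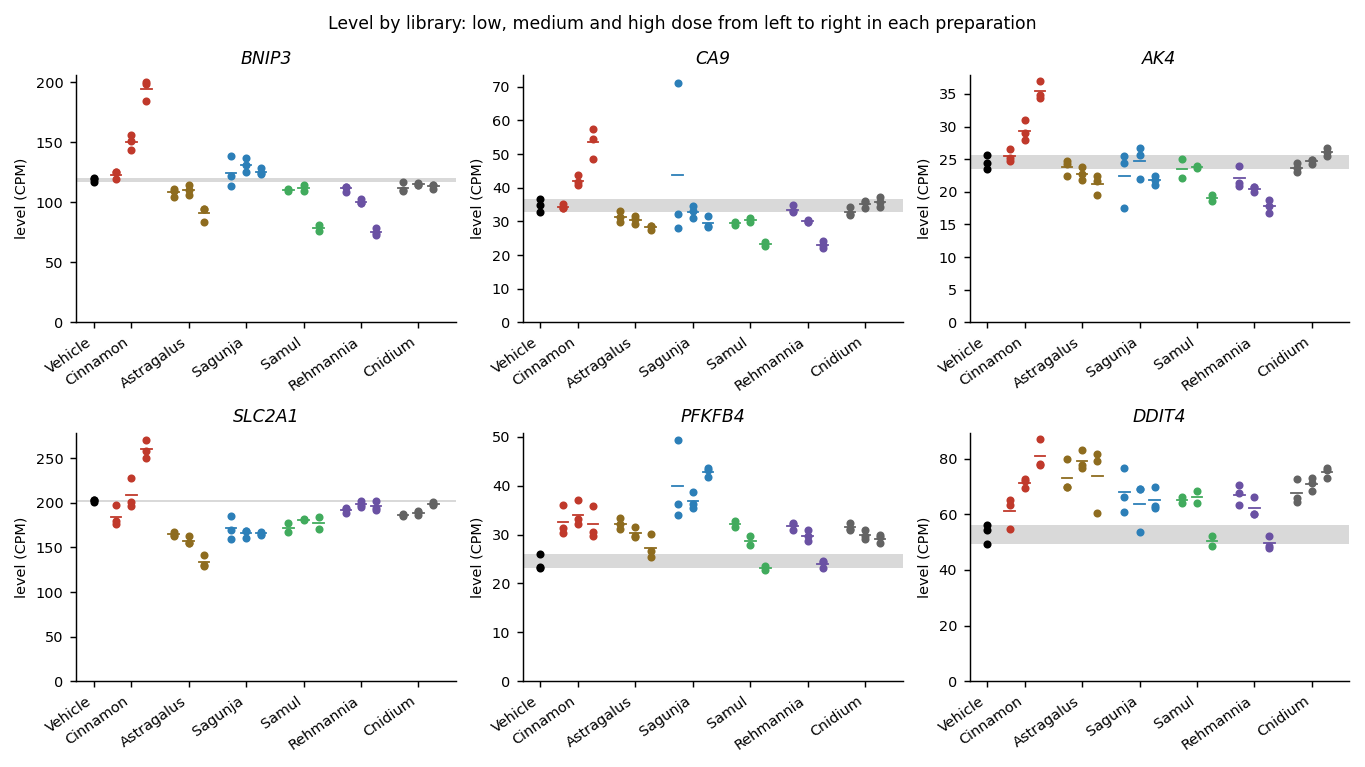
Level (CPM, vertical axis) of 6 genes in every library, low to high dose in each preparation. Short lines mark means and gray the vehicle range. BNIP3, CA9, AK4 and SLC2A1 were lower than vehicle at the high dose of Rehmannia, Samul or Astragalus. PFKFB4 and DDIT4 were called lower at a high dose against the low dose alone. BNIP3 lies at 73.1 to 78.5 CPM in Rehmannia high and 76.2 to 81.5 in Samul high, below the vehicle range of 117.4 to 120.1.

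Against the low dose in the same set, 0 genes were called higher and 4 lower for Rehmannia (0.805% of all genes: BNIP3, DDIT4, PFKFB4 and ALDOC), and 0 higher and 2 lower for Samul (0.736%: BNIP3 and PFKFB4). DDIT4 went from 67.5, 70.4 and 63.4 CPM at Rehmannia low to 47.9, 52.0 and 48.5 at high (-0.44, adjusted p = 0.00595). PFKFB4 went from 32.3, 32.2 and 31.0 to 24.5, 23.2 and 24.5 (-0.41, adjusted p = 0.00802), and for Samul from 32.7 and 31.6 to 22.7 and 23.7 (-0.47, adjusted p = 0.0153). For both genes the low dose lay above the vehicle (PFKFB4 at 23.2, 23.4 and 26.03 CPM) and the high dose overlapped it. The Rehmannia count was 2 without the first or the second high-dose library, and the Samul count was 1 without any of its 4 libraries. Without the first Sagunja low library the counts were 2 higher and 12 lower for Rehmannia (3.51%) and 1 higher and 8 lower for Samul (1.92%). STC2, a secreted glycoprotein gene also listed among HIF targets, was higher with both, by 0.49 and 0.45.

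Cnidium shares the set of Rehmannia and showed little change. DDIT4 alone was called against vehicle at the high dose (1 higher, 0 lower, 1.35% of all genes), with 75.8, 76.5 and 73.0 CPM against 49.3, 54.3 and 56.1 in vehicle (0.50, adjusted p = 0.00133). It was called at the medium dose too (1 higher, 0.297% of all genes), and PFKFB4 was called at the low dose (1 higher, 0.383%). The medium-dose call was lost without any 1 of its 6 libraries, and the low-dose call without the first or second vehicle library or any Cnidium library. High against low dose called 0 genes in either direction (0.228% of all genes). The test of the difference between dose effects called BNIP3 alone, at 0.58 ± 0.077 higher for Cnidium than for Rehmannia (1 higher, 0 lower, 0.04% of all genes). BNIP3 stood at 114.1, 114.5 and 111.2 CPM in Cnidium high and 116.8, 110.6 and 109.7 in Cnidium low, which overlapped. Leaving out the first Sagunja low library, 3 genes were higher and 2 lower for Cnidium high against vehicle (5.57%), 0 were called against the low dose (0.957%), and the difference from Rehmannia was called for 5 genes (0.189%: NDRG1, CA9, AK4, DDIT4 and BNIP3).

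Angelica and Paeonia, the other plants of the Samul formula, had 1 library at each dose and allow no test. At Paeonia high, 23 of 26 HIF-driven genes lay below the vehicle range and 2 above, and 15 of 16 core enzymes lay below and 1 above. At the medium dose 16 HIF-driven genes lay below and 3 above, and 13 core enzymes below and 1 above. At the low dose these were 12 and 7, and 14 and 2. Such counts were not made over all genes, and the vehicle belongs to another set, so they cannot be read as an effect of Paeonia. At Paeonia high the median log2 ratios to the vehicle mean (of CPM + 1) were -0.36 and -0.33. BNIP3 was at 52.9 CPM there (-1.15), the lowest value of all 60 libraries, while it was at 109.2 and 107.4 CPM at the medium and low dose. AK4 measured 13.2 CPM, CA9 19.8, NDRG1 29.6 and ENO2 34.8 in that library. HIF1A and EPAS1 had ratios of 0.015 and -0.046. At Angelica high the medians were 0.07 and 0.006, and DDIT4 at 91.9 CPM was the highest ratio (0.78).

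The main glucose transporter was lower than in vehicle at every dose of Astragalus and lower at its high than at its low dose. Lower SLC2A1 than in vehicle was not particular to Astragalus: it was also called at all 3 doses of Sagunja and at Samul low. For the high dose 1 gene was called higher and 7 lower than vehicle (4.45% of all genes), for the medium dose 2 and 4 (3.94%) and for the low dose 3 and 5 (3.67%). SLC2A1, the gene of GLUT1, measured 200.8, 202.7 and 203.7 CPM in vehicle, 167.2, 163.3 and 164.1 at the low dose, 162.3, 154.9 and 154.9 at medium and 141.2, 129.5 and 130.2 at high. The 4 groups did not overlap in this order, with -0.60 against vehicle at the high dose (adjusted p = 5.56e-11) and -0.30 ± 0.052 against the low dose (adjusted p = 0.000746). BNIP3 measured 104.5, 109.6 and 111.4 CPM at low and 83.8, 94.4 and 94.5 at high (-0.39 against vehicle, adjusted p = 6.46e-06, and -0.26 against low, adjusted p = 0.0194). High lay below low in every library, but the call against the low dose was lost without the first high-dose library (adjusted p = 0.328) or the second (0.105) or the third (0.135) low-dose library.

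Also lower with Astragalus high were ANGPTL4 (-0.74), NDRG1 (-0.46), PFKP (-0.29), GPI (-0.27) and EGLN1 (-0.20), and DDIT4 was higher (0.47). ANGPTL4 lost its call without the second high-dose library (adjusted p = 0.0563). GPI lost it without the first (0.0624) or the third (0.0926) vehicle library or the second (0.103) or the third (0.0859) high-dose library, and the count without the second high-dose library was 5. SLC2A1 and BNIP3 were the only members called between high and low dose (0 higher, 2 lower, 0.28% of all genes), and 1 was left without any of the 3 libraries named for BNIP3. HIF1A measured 1330, 1201 and 1179 CPM and EPAS1 262.6, 232.6 and 232.1 CPM at the high dose, above every vehicle library. Their differences from vehicle of 0.25 and 0.28 did not pass with all libraries in the fit. With the first Sagunja low library left out, both were called higher than vehicle (HIF1A 0.24, adjusted p = 0.000236, and EPAS1 0.27, adjusted p = 3.74e-05) and than the low dose (0.22, adjusted p = 0.00684, and 0.29, adjusted p = 7.82e-05). For the medium dose the count of 6 was 3 without the first or second vehicle library or the second or the third medium-dose library, and for the low dose the count of 8 was 5 without the first vehicle library or the second low-dose library. When the first Sagunja low library was left out, the high dose had 3 genes higher and 18 lower than vehicle (12.7%) and 2 higher and 4 lower than the low dose (1.16%).

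Sagunja-tang high differed from vehicle in 4 genes called higher and 6 lower (17.1% of all genes), a share close to that over all genes. PFKFB4, a bifunctional regulator of phosphofructokinase, measured 43.6, 41.8 and 43.3 CPM against 23.2, 23.4 and 26.03 in vehicle, without overlap (0.82, adjusted p = 1.07e-09). NDRG1 measured 33.9, 34.9 and 37.8 CPM against 49.4 to 52.6 in vehicle, with every library lower (-0.53, adjusted p = 7.03e-08). Lower too were ANGPTL4 (-0.63), SLC2A1 (-0.29), PKM (-0.24) and GPI (-0.31), the last at 350.9, 343.9 and 345.3 CPM against 428.5, 416.1 and 441.1 in vehicle. GAPDH measured 3418, 3588 and 3496 CPM, below all vehicle libraries (-0.41, adjusted p = 0.0247), but this call was lost without the first (adjusted p = 0.0861) or the third (0.066) vehicle library or any 1 of the Sagunja high libraries (0.0555 to 0.0781).

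DDIT4 (0.29), P4HA2 (0.21) and ENO2 (0.26) completed the calls in Sagunja high. P4HA2 lost its call without the first vehicle library (adjusted p = 0.0509) or the second high-dose library (0.0695), and ENO2 lost its call when any 1 of the 6 libraries was left out (0.0506 to 0.127). The count of 10 was 6 without the first vehicle library or the second high-dose library. With the first Sagunja low library left out, 9 genes were higher and 12 lower (30.9%). The core enzymes summed to 15510 CPM at Sagunja high. For the medium dose 1 gene was higher and 4 lower than vehicle (6.32%), and 3 were called without the third vehicle library.

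Between the high and low dose of Sagunja the result rested on the library that stood apart. With it, 5 genes were called higher and 9 lower (20.5% of all genes), and without it 3 were higher and 0 lower (6.49%). GAPDH measured 7679, 3927 and 3555 CPM in the 3 low-dose libraries, PKM 3393, 3029 and 2777, GPI 468.2, 367.0 and 360.3, and HIF1A 290.4, 998.3 and 991.6. For GAPDH, GPI and HIF1A the first library was far from the other pair, while for PKM it was the highest of all 60 libraries but not far from the other pair. For GAPDH the third library lay within the range of the high dose. Without that library GAPDH differed by -0.09 (adjusted p = 0.587), and NDRG1 (-0.19, adjusted p = 0.0985), P4HA2 (0.13, adjusted p = 0.224), GPI (adjusted p = 0.652) and PKM (adjusted p = 0.425) were not called either. The count was 7, 8 or 9 without the first, second or the third high-dose library, and 25 or 26 without the second or the third low-dose library.

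LOX, PFKFB4 and EPAS1 were the genes called higher at the high dose without that library. LOX, named after its values were seen, measured 254.9, 245.7 and 247.2 CPM at high, 226.5, 221.6 and 230.1 at medium and 101.7, 200.9 and 206.3 at low (0.30 ± 0.045 without the first library, adjusted p = 3.21e-06). PFKFB4 measured 49.4, 36.3 and 34.0 CPM at low, so that it was called only without the first library. The low dose against vehicle had 9 genes higher and 5 lower (22.1%), of which 4 were called without the library. The count of 14 was 8 without the first or the third vehicle library, 9 without the first low-dose library and 24 without the second or the third.

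The difference between the dose effects of Sagunja and Samul was called for 3 genes, all higher for Sagunja (3 higher, 0 lower, 2.89% of all genes). BNIP3 differed by 0.49 ± 0.086, PFKFB4 by 0.58 and LOX by 0.61. BNIP3 stood at 124.1, 128.9 and 123.3 CPM in Sagunja high, above the vehicle range, and at 81.5 and 76.2 in Samul high. Once the first Sagunja low library was left out, 4 genes were higher and 1 lower (3.06%). The count was 1 without the first Samul low library, 5 without the first Sagunja low library, and 12 or 18 without the second or the third.

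At the lower doses the remaining comparisons with vehicle called few genes. Samul medium had 0 higher and 1 lower (1.75%) and Samul low 1 higher and 4 lower (2.62%). Rehmannia medium had 0 higher and 1 lower (0.714%), BNIP3 at -0.24, and Rehmannia low 1 higher and 0 lower (0.993%), PFKFB4 at 0.40. The Samul medium call was lost without any 1 of its 5 libraries. For Samul low 0 calls were left without either Samul library, 1 without the first or second vehicle library and 2 without the third. The Rehmannia medium call was lost without any vehicle library or the first or the third medium-dose library, and the Rehmannia low call without the first or second of either group.

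Some genes separated the vehicle from nearly all extract libraries, whatever the preparation, and were singled out after their values were seen. PFKFB4 lay above all vehicle libraries in 50 of 57 extract libraries and was called higher in 11 of 18 comparisons with vehicle. DDIT4 lay above in 48 of 57 and was called higher in 9 of 18. ANGPTL4 lay below all vehicle libraries in 50 of 57 and was called lower in 7 of 18, as was SLC2A1 with 49 of 57 below. NDRG1 lay below in 40 of 57 and was called lower in 8 of 18, while PFKP (50 of 57) and GPI (45 of 57) were each called lower in 6. ALDOA (51 of 57) and HK1 (50 of 57) lay below as often and were called lower in 0 comparisons. These comparisons share the vehicle libraries, and the vehicle is a set of its own, so the extracts and the set cannot be told apart here. How many of all tested genes lay outside the vehicle range as often was not computed. The counts therefore do not show whether these genes are unusual. The comparisons between doses above do not use the vehicle.

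HIF-driven genes and core enzymes were not separated in the same way by every extract. With Cinnamon high the HIF-driven genes had the higher median against vehicle and against the low dose. Calls were 23 of 26 HIF-driven genes and 7 of 16 core enzymes against vehicle, and 19 of 26 and 10 of 16 against the low dose. With the first Sagunja low library left out they were 23 of 26 (and 1 lower) and 11 of 16 against vehicle, and 22 of 26 and 14 of 16 against the low dose, where the core enzymes then had the larger share. The difference in shares was not tested. In Rehmannia high (-0.16 and -0.14) and Samul high (-0.13 and -0.14) the medians of the lists lay close together. Group means fell from low through medium to high for 13 of 26 HIF-driven genes and 10 of 16 core enzymes with Rehmannia, and for 14 of 26 and 4 of 16 with Astragalus. In Sagunja high the medians were 0.05 and -0.07. With Cnidium the means rose with dose for 13 of 26 and 11 of 16, without calls between high and low dose. No share over all genes was computed for these orders of means.

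**Figure D5:**
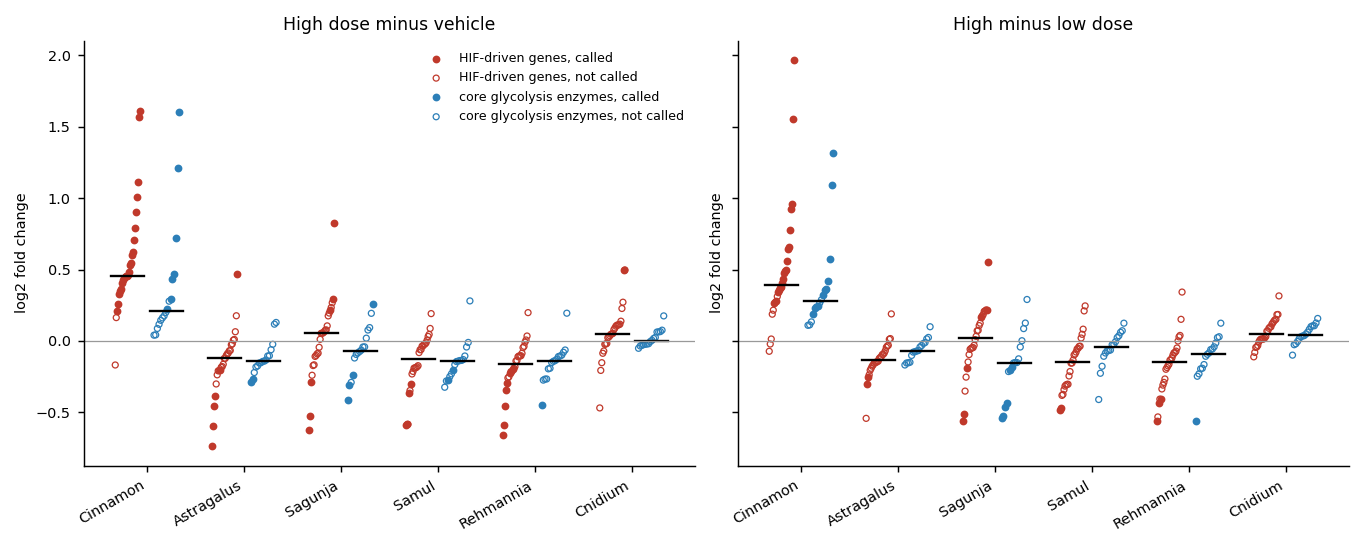
Log2 fold changes of the 26 HIF-driven genes and the 16 core enzymes at the high dose of each replicated preparation against vehicle (left) and against the low dose (right), with each point a gene, filled where called, and a line for the list median. Against vehicle Cinnamon has medians of 0.45 and 0.21, and Rehmannia has -0.16 and -0.14.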

How the data were processed

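RNA from 60 samples of SW1783 was sequenced as directional paired-end libraries, per the labels' protocols. The deposited table gave expected counts, whole or fractional, for each gene. The submitters' processing notes name RSEM 1.3.3, STAR 2.7.3a, Trim Galore 0.6.5, FastQC 0.11.9 and the build hg38 (GRCh38). The annotation release and the use of strand are not given in the sources used here. Of 279 sample columns 60 were used and 219 belonged to no sample described here. Expected counts were rounded (90.67% were whole). Symbols came from an Ensembl table (56558 genes) and positions and lengths from GENCODE 29 (57055 genes). The labels give every extract dose as 500, 100 or 20 µg/mL, although the series text allows lower doses for toxic extracts and states another DMSO level for the vehicle. DMSO in the extract groups is not stated.

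Genes were filtered with filterByExpr (17516 left), scaled with TMM factors (0.936 to 1.028), and 54 libraries of 19 groups were fitted together with edgeR 4.0.16 (quasi-likelihood, robust, 35 residual degrees of freedom, biological coefficient of variation 0.0946) in R 4.3.3 with limma 3.58.1. Called means an adjusted p under 0.05 (Benjamini-Hochberg over all tested genes in each of 27 comparisons). Standard errors were derived from the F statistic and draw on the spread over all groups. CPM used the TMM factors, and CPM per kb the summed exon length. Groups of 1 library were compared by log2 ratios of CPM + 1 without a test. DESeq2 1.42.0 was an alternative, with other scalings, filters, fits and left-out libraries. Figures were drawn with matplotlib 3.10.9 and tables made with pandas 2.3.3 in Python 3.11.15. The script was tested on simulated data.

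The 44 genes, the lists and the tests were chosen with earlier results of these data known. Values in every library are given for the alpha subunits and for genes called the same way against vehicle and against the low dose (the 4 HIF-driven genes and 3 core enzymes of largest change per preparation), with GAPDH, LDHA and PGK1 always named, and other genes are named where a count is small. Of each other list, the called genes of largest change are named. The result of 1 gene among the further HIF targets is not reported here. No pair of replicates was a copy: their scatter exceeded counting noise in all pairs.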

Additional observations from a re-analysis of the deposited data

Results flagged for a closer look

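The dose effects of preparations from the same set differed for a number of genes by the test of the difference itself (edgeR's quasi-likelihood test, adjusted p under 0.05). The differences are given on the log2 scale. Cinnamon and Astragalus were furthest apart. Among stress and signalling genes driven by HIF, the dose effect of Cinnamon exceeded that of Astragalus for NDRG1 (1.73), ANGPTL4 (1.78), ADM (1.02), BNIP3 (0.92), BNIP3L (0.51), DDIT4 (0.4), MXI1 (0.81), AK4 (0.64) and HILPDA (0.53). Among genes of transport and fuel choice it did so for CA9 (0.79), SLC16A3 (0.64), SLC2A1 (0.8), SLC2A3 (1.1) and PDK3 (0.41). Among hydroxylases and protein folding genes it did so for P4HA1 (0.39), P4HA2 (0.57), ERO1A (0.49), EGLN1 (0.33) and EGLN3 (1.03). Among core enzymes it did so for ALDOC (1.39), ENO2 (1.25), HK2 (0.74), HK1 (0.31), PGK1 (0.57), PFKM (0.4), PFKP (0.29), PGAM1 (0.33) and LDHA (0.26).

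BNIP3 differed in all 3 pairs of preparations that share a set. Beside Cinnamon and Astragalus, its dose effect with Cnidium exceeded that with Rehmannia by 0.58, and that with Sagunja exceeded that with Samul by 0.49. PFKFB4 (0.58) and LOX (0.61) also differed between Sagunja and Samul, where the first Sagunja low library enters the comparison, with 49.4 CPM of PFKFB4 and 101.7 CPM of LOX.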

How the results depend on the processing

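Counts of called members for Cinnamon high, against vehicle, against the low dose and as a difference from Astragalus, stayed within 1.5 times of the values reported under all alternatives. Leaving out each library in turn gave these ranges of called members against vehicle for the high, medium and low dose: Cinnamon 29 to 30, 7 to 12 and 0 to 1, Astragalus 5 to 8, 3 to 5 and 5 to 6, Sagunja 6 to 9, 3 to 7 and 8 to 24, Samul 2 to 5, 0 to 0 and 0 to 2, Rehmannia 2 to 4, 0 to 1 and 0 to 1, and Cnidium 1 to 1, 0 to 0 and 0 to 1. For high against low dose the ranges were 25 to 30 for Cinnamon, 1 to 2 for Astragalus, 3 to 26 for Sagunja, 1 to 1 for Samul, 2 to 4 for Rehmannia and 0 to 0 for Cnidium. For the differences between dose effects they were 22 to 28 (Cinnamon and Astragalus), 1 to 1 (Cnidium and Rehmannia) and 1 to 18 (Sagunja and Samul).

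Without the first Sagunja low library in any fit, the called members at the high, medium and low dose against vehicle became 18 and 4 for Cinnamon medium and low, 21, 11 and 13 for Astragalus, 21, 15 and 9 for Sagunja, 21, 11 and 14 for Samul, 18, 6 and 4 for Rehmannia and 5, 3 and 4 for Cnidium. High against low became 6 for Astragalus, 3 for Sagunja, 9 for Samul and 14 for Rehmannia, and the differences became 5 for Cnidium and Rehmannia and 5 for Sagunja and Samul. Fits restricted to the libraries being compared changed more: the counts against vehicle became 20 and 2 for Cinnamon medium and low, 12 and 19 for Astragalus medium and low, 25 and 0 for Sagunja high and low, 20, 19 and 23 for Samul, 27, 18 and 5 for Rehmannia and 12, 4 and 5 for Cnidium. High against low then gave 0 for Astragalus, 0 for Sagunja, 16 for Rehmannia and 3 for Cnidium, and the differences gave 10 for Cnidium and Rehmannia and 0 for Sagunja and Samul. The cause was not tested beyond this.

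DESeq2 gave 13 and 5 for Samul high and medium, 3 for Rehmannia low, 2 for Cnidium low, 7 for Rehmannia high against low and 3 for Cnidium and Rehmannia. Library size alone gave 4 and 2 for Rehmannia high and low and 3 and 2 for Cnidium high and medium. A fit with no filter at all could not be made, and a total count of at least 10, chosen after seeing the data, gave 0 for Samul medium, 4 for Rehmannia high, 1 for Astragalus and 9 for Sagunja high against low. The replicate numbers did not pair the libraries (correlations of deviations -0.148 to 0.144, with no comparison above 0.1 in every pair), and the fit with a replicate block gave 2 for Samul medium, 2 for Rehmannia low and 2 for Cnidium and Rehmannia.

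The alpha subunits, uncalled with Samul and Rehmannia, changed sign there around 0 under some alternatives. Over left-out libraries HIF1A ranged from -0.011 (without the first Samul high library) to 0.075 for Samul high, and it was at 0.019 for Rehmannia high with library size alone. EPAS1 was at 0.021 (Samul high) and 0.045 (Rehmannia high) with library size alone, and for Rehmannia high at 0.021 without the third vehicle library, with a range of -0.03 to 0.034 over left-out libraries. Against the low dose it ranged from -0.024 to 0.073 for Samul and from -0.034 to 0.051 for Rehmannia, where leaving out the first or the third high-dose library gave -0.01 and -0.013. Differences smaller than the standard errors printed could not be resolved at this number of libraries, and the single-library values carry no error.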
